A study of Drosophila melanogaster with 3 samples.

Results

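The 9 genes described here encode enzymes of glycolysis. In the order of the pathway they are Pgi (FBgn0003074), Pfk (FBgn0003071), Ald1 (FBgn0000064), Tpi (FBgn0086355), Gapdh1 (FBgn0001091), Gapdh2 (FBgn0001092), Pgk (FBgn0250906), Eno (FBgn0000579) and PyK (FBgn0267385). They were chosen by FlyBase gene identifier, as enzymes of 1 pathway. In the pooled isoform catalogue of fly heads, 8 of the 9 genes had exon lines, and Gapdh1 had none. Together the 8 genes held 14 of 5272 isoforms and 61 of 25067 exon lines. The catalogue comes from PacBio Iso-seq, which reads full-length cDNA as consensus reads. All 3 libraries were made from heads of 3-day-old, untreated adults of the strain w1118, kept at 25 °C, and they form 1 group. The labels call this strain wild type; it carries a mutation of the eye colour gene white. Size selection aimed at transcripts above 3 kb, though only 22.2% of 4940 isoforms of annotated genes measured 3000 nt or more. The libraries were pooled before assembly. The catalogue therefore lists exon positions on the dm6 genome without abundance, depth per library or a spread between replicates, and no test between samples was possible.

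Glycolysis turns glucose into pyruvate in the cytosol and yields ATP and NADH. Its early steps rearrange and split the sugar: glucose-6-phosphate isomerase (Pgi), phosphofructokinase (Pfk), which commits the sugar to the pathway, aldolase (Ald1) and triosephosphate isomerase (Tpi). Its later steps oxidise the triose and make ATP: glyceraldehyde-3-phosphate dehydrogenase (Gapdh1 and Gapdh2), phosphoglycerate kinase (Pgk), enolase (Eno) and pyruvate kinase (PyK). Neurons and photoreceptors use much ATP, and in flies glia are known to pass on products of glycolysis to neurons. The study asked how the transcription start site (TSS) relates to exon choice and to the polyadenylation site (PAS). For these enzymes the question becomes which TSSs, exons and PASs were joined in 1 transcript, and whether the protein differs between the isoforms.

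The labelled tissue was checked with marker genes. Isoforms were listed for 7 of 8 photoreceptor markers, 3 of 4 glial, 4 of 5 muscle, 3 of 4 fat body and 2 of 5 neuronal markers. The neuronal markers listed were nSyb and Syt1, while elav, brp and para had none. The photoreceptor marker chp, the glial marker repo, the muscle marker Act88F and the fat body marker Fbp1 had none either. Of 13986 annotated protein-coding genes, 28.8% had an isoform. No isoform was listed for 3 germline markers, and 1 of 4 midgut markers, alphaTry, had 1. With 3 to 8 genes per list, these counts were not tested. Markers of several cell types were thus listed, and the catalogue does not tell in which cell type a glycolysis isoform was made.

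Ald1 had 4 isoforms, Pfk 3, PyK 2, and Pgi, Tpi, Gapdh2, Pgk and Eno 1 each. Thus 3 of 8 members (37.5%) had several isoforms, where 14.8% of the 4059 genes in the catalogue did. Alternative TSSs, defined as 5′ ends more than 50 nt apart, occurred in Ald1 and PyK, 2 of 8 members against 5.57% of all genes. A PAS is here a 3′ end as listed, not checked against other evidence of poly(A) tails. Alternative polyadenylation (APA, 3′ ends more than 150 nt apart) occurred in Ald1 alone among the members, against 7.17% of all genes. With 8 genes these shares describe the group and were not tested. Ald1 varied in its 5′ end and in its 3′ UTR, PyK in its TSS and the N-terminus of its protein, and Pfk in an internal coding exon.

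**Figure D1:**
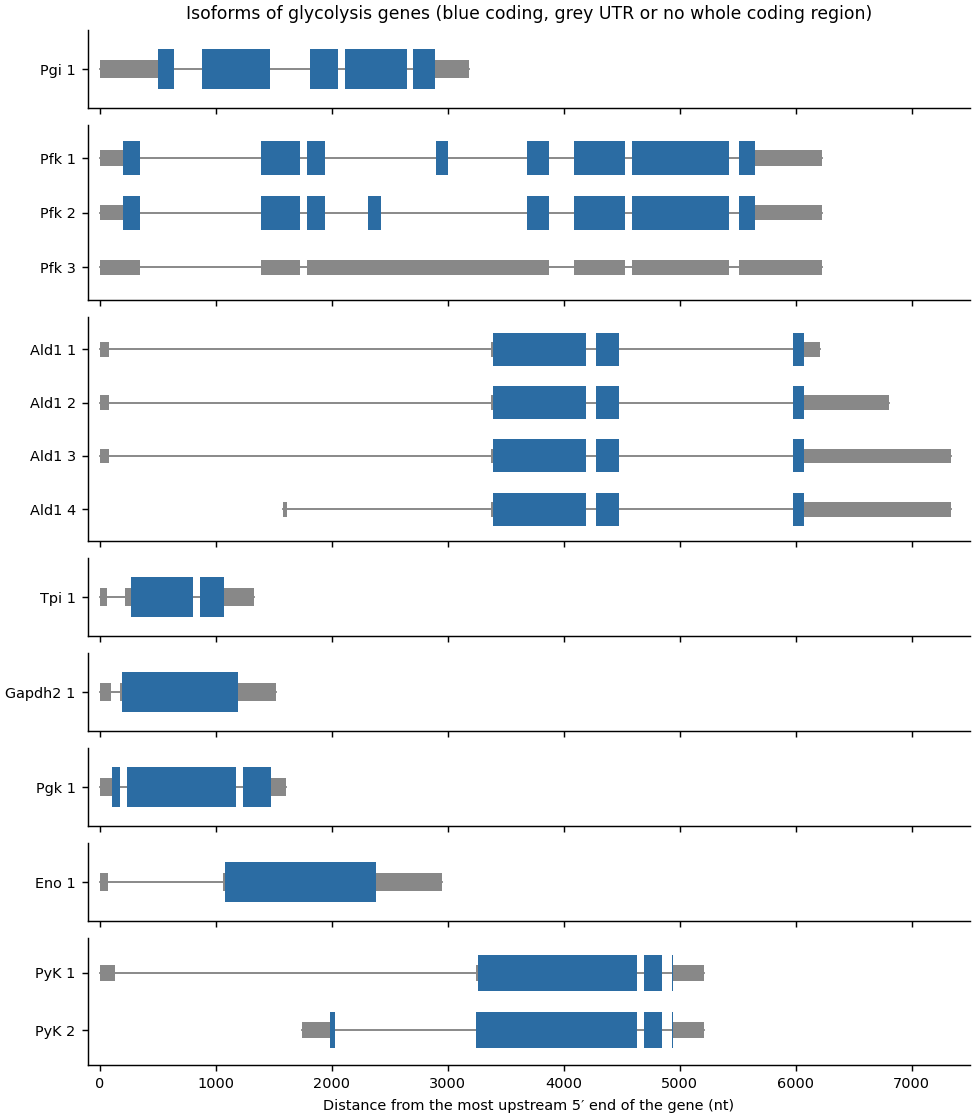
Exon maps of the 14 isoforms, by gene in pathway order; the horizontal axis is the distance in nt from the gene's most upstream 5′ end, thick blue bars are coding, grey bars are UTRs and lines are introns. The 4 Ald1 isoforms differ at both ends, Pfk isoforms 1 and 2 in an internal exon and the PyK isoforms in the first exon; Pfk isoform 3 is drawn grey since it holds no whole annotated coding region.

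Ald1 encodes aldolase, which splits fructose-1,6-bisphosphate into a pair of trioses. It lies on the minus strand of chromosome 3R. Isoforms 1, 2 and 3 began at 26261412 and shared a first exon of 77 nt, which is followed by an intron of 3294 nt. They ended at 26255205, 26254604 and 26254070, respectively, all in the same last exon. The fourth isoform began 1577 nt downstream, at 26259835, with a first exon of 34 nt and an intron of 1760 nt, and ended at 26254070. All 4 isoforms share the junctions from the second exon on. The upstream TSS was thus joined to all 3 PASs and the downstream TSS to the most distal PAS, which makes 4 of 6 possible TSS-PAS pairs. Whether the remaining pairs are rarer cannot be read from a catalogue without read counts.

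The coding region of Ald1 did not vary. Each of the 4 isoforms held the same 1086 coding nt with the stop codon, for a protein of 361 residues, and the start codon lies in the shared second exon. The 5′ UTR was 98 nt from the upstream TSS and 55 nt from the downstream TSS. The 3′ UTR was 137, 738 and 1272 nt for the 3 PASs, 9.28 times as long at the distal as at the proximal PAS. Among 3854 multi-exon isoforms of protein-coding genes that hold a whole annotated coding region, the median 3′ UTR was 303 nt. The proximal Ald1 3′ UTR was longer than or equal to 24.7% of these and the distal to 95.1%. Choice of the PAS moved the spliced length from 1321 to 2456 nt. The 3 PASs are 601 and 534 nt apart along the last exon.

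Having 3 or more PASs in 1 last exon was rare in the catalogue, at 9 of 4035 annotated genes (0.223%): Acsl, Ald1, Atpalpha, CycG, Msr-110, Pkc98E, Ubi-p63E, apolpp and sw. Most genes could not show the pattern, since only 599 of 4059 had several isoforms. The Ald1 ends lay within 1 nt of annotated ends, while all 5 apolpp isoforms ended over 150 nt away. Of the 9 genes, Acsl, Ald1, Atpalpha, CycG and Pkc98E also had alternative TSSs. The current Ensembl annotation gives Ald1 10 transcripts, with 5 TSSs and 4 PASs. The catalogue used 2 of these TSSs and 3 of these PASs. The unused PAS, at 26255966, belongs to transcripts with other last coding exons, and these encode proteins of 363 residues. None of the 4 isoforms held such an end, so the annotated choice among aldolase C-termini was not seen here. None of the 4 matched an annotated transcript in the splice chain (the ordered set of junctions) and in both ends at once. Ends and chains were each annotated, but the pairings were not: isoforms 1 to 3 have the chain of Ald1-RB and Ald1-RM, which are annotated from 26261591. The fourth has the chain of Ald1-RC, which is annotated to end at the proximal PAS, 26255204.

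Pfk encodes phosphofructokinase, the enzyme that phosphorylates fructose-6-phosphate and a main point of control of glycolysis. It lies on the plus strand of chromosome 2R. All 3 isoforms ran from 10111230 to 10117457, so neither the TSS nor the PAS varied. Isoforms 1 and 2 had 8 exons and the same spliced length of 3148 nt. They differed in exon 4: isoform 1 used 10114126 to 10114234 and isoform 2 used 10113543 to 10113651, each 109 nt long. Since 109 is not a multiple of 3, a transcript with neither or both of these exons would shift the reading frame. Each isoform kept a whole annotated coding region of 2367 nt, for proteins of 788 residues that differ in the stretch this exon encodes.

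Such an exchange of an internal exon for another was found in 13 of 595 genes with several isoforms (2.18%). The exons exchanged had equal length in 5 of them (0.84%): 14-3-3zeta, Atpalpha, Gs1l, Pfk and Sam-S. The annotation lists 3 alternative exons of 109 nt at this place in Pfk. The exon at 10113285 to 10113393, annotated in Pfk-RD and Pfk-RE, was in no listed isoform as a separate exon. Isoform 3 of Pfk had 6 exons and was not spliced across the region. Exon 3 of this isoform ran for 2090 nt, from 10113016 to 10115105. It covers the 1746 nt between the shared exons on either side, with all 3 alternative exons inside, while its other 5 introns were removed. At 4785 nt it was 1637 nt longer than isoforms 1 and 2, and longer than or equal to 96.4% of 4940 isoforms. It was the only member isoform without a whole annotated coding region and the only one whose splice chain was not annotated. Whether it is an intermediate of splicing or a finished transcript was not tested.

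**Figure D2:**
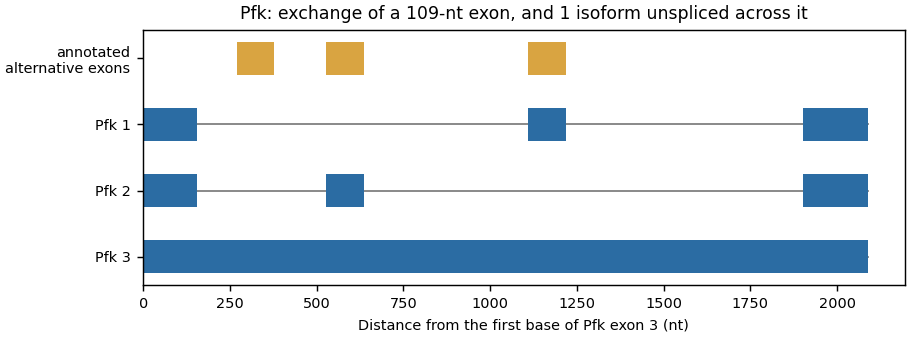
The region of Pfk between exon 3 and the next shared exon; the horizontal axis is the distance in nt from the first base of exon 3, blue bars are exons of the 3 isoforms and orange bars the 3 annotated alternative exons of 109 nt. Isoform 1 uses the last of the 3 alternative exons, isoform 2 the middle exon, and isoform 3 is unspliced over 2090 nt.

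The Pfk 5′ end lay 360 nt inside the nearest annotated 5′ end, at 10110870. Pfk was the only member whose listed start, shared by its 3 isoforms, is not an annotated start. Among 4671 multi-exon isoforms of annotated genes, 95.8% had their 5′ end no more than 1 nt from an annotated start and 2.33% had it over 50 nt away. The authors kept reads whose 5′ end was supported by a promoter database, which is another source than the annotation used here. Whether that database holds a promoter at the listed Pfk start was not tested. From this TSS the 5′ UTR was 199 nt. A further annotated TSS upstream at 10109740, whose transcripts encode proteins of 922 and 950 residues, was not used. Isoform 1 joined the chain of Pfk-RC, annotated to end at 10117137, to the more distal annotated end at 10117457.

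PyK encodes pyruvate kinase, which makes pyruvate and ATP in the last step of glycolysis. It lies on the plus strand of chromosome 3R. Isoform 1 began at 22367537 with a first exon of 132 nt and an intron of 3109 nt. The other isoform began 1746 nt downstream, at 22369283, with a first exon of 283 nt and an intron of 1212 nt. The remaining 3 exons, of 1390, 157 and 278 nt, were the same, and both ended at 22372746. The downstream first exon carries an annotated start codon, while the upstream first exon is noncoding and translation is annotated to begin in the second exon. The coding regions were therefore 1539 and 1602 nt, for proteins of 512 and 533 residues, a difference of 21 residues at the N-terminus.

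In PyK the choice of TSS thus changed the longest annotated protein and left the 3′ end as it was, while in Ald1 the protein was the same from either TSS. For the catalogue, the longest whole annotated coding region of each isoform was compared. It differed between TSSs in 99 of 223 genes with alternative TSSs (44.4%). An isoform may hold a shorter annotated coding region as well. The PyK 5′ UTRs measured 153 and 241 nt, and the 3′ UTR was 265 nt in both. PyK was the only member for which every annotated splice chain, TSS, PAS and coding region was found. Each PyK isoform matched an annotated transcript in chain and both ends.

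The other 5 detected members had 1 isoform each. Pgi, which interconverts glucose-6-phosphate and fructose-6-phosphate, ran from 8914069 to 8910886 on the minus strand of chromosome 2R. It had 5 exons and 2474 nt, and its 5′ UTR of 503 nt was the longest among the members. The annotation also holds a form, Pgi-RB, in which 139 nt of this 5′ UTR are removed as an intron, and the listed isoform kept them. Its coding region, 1677 nt for 558 residues, is the only one annotated for Pgi. The 3′ end was 14 nt past the annotated end, which made it the only member isoform not within 1 nt of an annotated 3′ end.

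Tpi, which interconverts the trioses made by aldolase, had the shortest isoform of the group. It ran from 30134309 to 30132982 on the minus strand of chromosome 3R, with 3 exons and 1111 nt, and encodes 247 residues. An annotated upstream TSS at 30134599 gives a longer protein of 348 residues, and this form was not listed. Gapdh2, which oxidises glyceraldehyde-3-phosphate, ran from 15868146 to 15869661 on the plus strand of chromosome X. It had 2 exons, an intron of 74 nt and a spliced length of 1442 nt, and encodes 332 residues.

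Pgk, which makes ATP from 1,3-bisphosphoglycerate, ran from 2748487 to 2746881 on the minus strand of chromosome 2L, with 3 exons and 1485 nt. Of its 5 annotated TSSs the catalogue held the one closest to the coding region. All 5 lead to the same protein of 415 residues, and the annotated forms from upstream have 4 exons and 1860 to 1893 nt. Eno, which forms phosphoenolpyruvate, ran from 1727717 to 1724769 on the minus strand of chromosome 2L, with 2 exons and 1959 nt. Its coding region gives 433 residues. The annotated upstream TSSs of Eno, at 1728463 and 1729636, lead to a protein of 500 residues, and no isoform from them was listed. The Eno isoform paired the chain of Eno-RA, annotated to end at 1724974, with the distal annotated end at 1724768, so its 3′ UTR was 572 nt long.

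**Figure D3:**
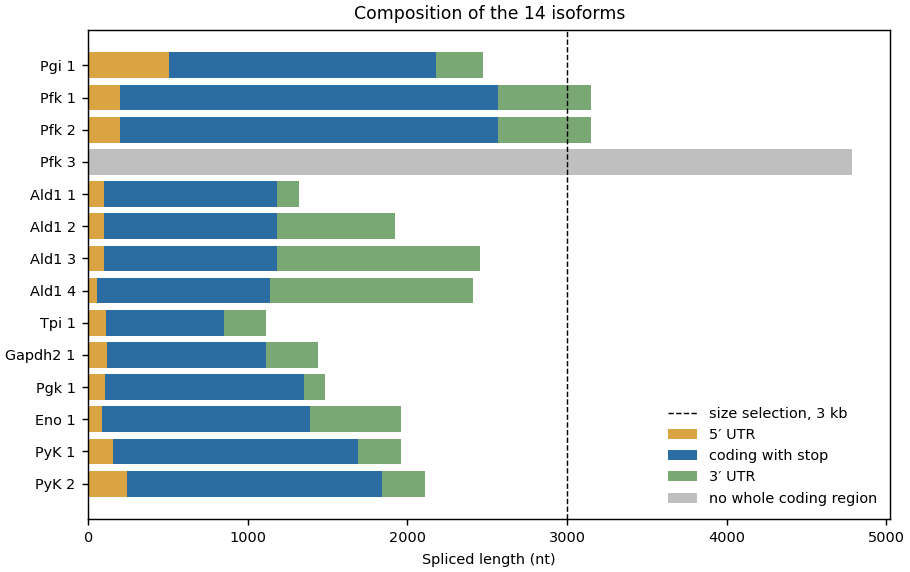
Spliced length in nt of each of the 14 isoforms, divided into 5′ UTR, coding region with stop codon and 3′ UTR; the dashed line marks the 3 kb size selection. The Pfk isoforms lie above 3 kb, and the Ald1 isoforms share a coding length of 1086 nt but have 3′ UTRs of 137 to 1272 nt.

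Gapdh1, the paralog of Gapdh2 on chromosome 2R (7791901 to 7793380, minus strand), had no isoform. No isoform of another gene or of an unnamed locus overlapped it. Gapdh1 is annotated with single-exon transcripts of 1330 and 1480 nt, which encode 332 residues, as many as Gapdh2. Gapdh1 and Gapdh2 encode closely similar proteins, and how reads were placed between the paralogs was not tested. Of 1414 protein-coding genes whose longest transcript is within 10% of that of Gapdh1, 29.3% had an isoform. Of the 207 among them with single-exon transcripts only, 17.9% did. An isoform needed a supported 5′ end and at least 2 full-length reads, so Gapdh1 was not detected under these filters and is not shown to be silent.

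Across the members, isoform length was close to that of the catalogue. The median spliced length was 2033.5 nt for the 14 isoforms and 2010.5 nt for 4940 isoforms of annotated genes. Isoforms of 3000 nt or more were 3 of 14 (21.4%), all from Pfk, against 22.2%. The 13 isoforms with a whole coding region had a median 5′ UTR of 107 nt, against 178 nt in the catalogue. Their values ran from 55 nt in Ald1 to 503 nt in Pgi. The median 3′ UTR was 327 nt, against 303 nt, from 131 nt in Pgk to 1272 nt in Ald1. Introns numbered 27 when each was counted once per gene. They ran from 55 nt in Pgi to 3294 nt in Ald1, and 12 of them (44.4%) were under 100 nt, against 51.6% in the catalogue. The introns over 3 kb were the first introns from the upstream TSSs of Ald1 and PyK. Isoforms of 1 gene share most of their sequence and are not independent of each other.

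Most member isoforms held a whole annotated coding region, as most isoforms of the catalogue did, and had an annotated 3′ end. The 14 isoforms come from 8 genes, and these shares were not tested. A whole annotated coding region was present in 13 of 14 isoforms (92.9%), against 82.6% of multi-exon isoforms of protein-coding genes. The splice chain was annotated for 13 of 14 (92.9%) against 80.0%. The 3′ end lay within 1 nt of an annotated end for 13 of 14, against 61.5%, and none lay over 150 nt away, against 24.7%. Annotated 5′ ends were found for 11 of 14 (78.6%) against 95.8%, the 3 exceptions being the Pfk isoforms. Chain and both ends matched a single annotated transcript in 5 of 14 (35.7%) against 46.0%. These 5 were the isoforms of Tpi, Gapdh2, Pgk and PyK.

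The 8 detected members have 36 annotated transcripts. Of their 33 annotated splice chains, 11 were found (33.3%), against 35.9% of the chains of all detected genes. For TSSs it was 9 of 23 (39.1%) against 61.9%, and for PASs 10 of 13 (76.9%) against 56.3%. Pgk and Ald1, with 5 annotated TSSs each, account for 7 of the 14 unused TSSs. Annotated coding regions were held whole for 10 of 17 (58.8%) against 50.4%. Among the 5 members with several annotated coding regions, Pfk and PyK showed more than 1, while Ald1, Tpi and Eno showed 1. In the catalogue, 35.4% of such genes showed more than 1. The missing proteins were the 363-residue aldolases, the 348-residue Tpi, the 500-residue Eno and the forms of Pfk with 922 and 950 residues. In Tpi, Eno and Pfk these longer proteins all start from an annotated TSS upstream of the one used.

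**Figure D4:**
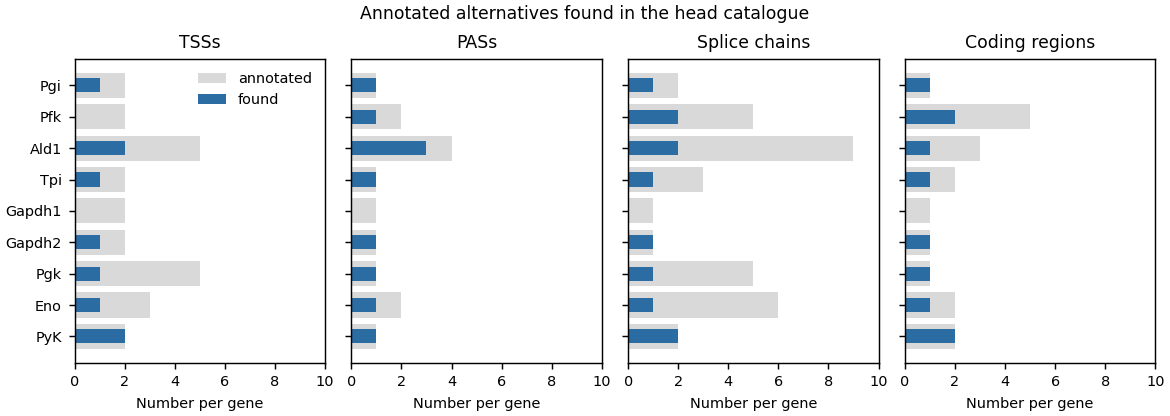
Number per gene of annotated TSSs, PASs, splice chains and coding regions (wide grey bars) and of those found in the catalogue (narrow blue bars), for the 9 genes in pathway order. PyK shows every annotated alternative, Ald1 shows 2 of 9 chains and 3 of 4 PASs, and Gapdh1 shows none.

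The neighbouring steps of sugar metabolism were followed with a list of 40 genes. Of these, 21 (52.5%) had an isoform, against 28.8% of 13986 annotated protein-coding genes. All 9 genes for the supply and storage of sugar were listed. Treh, which cleaves the blood sugar trehalose, had 3 isoforms, and UGP, which makes UDP-glucose, and the glycogen synthase gene Glys had 2 each. Glut1 and Tret1-1 (sugar transporters), Tps1 (trehalose synthesis), Glyp (glycogen phosphorylase), AGBE (glycogen branching enzyme) and Pgm1 (phosphoglucomutase) had 1 each. The Glut1 isoform, of 2326 nt, had no annotated splice chain and held no whole annotated coding region. The longest annotated Glut1 transcript measures 7646 nt. Among the hexokinases, which start glycolysis, Hex-A had 1 isoform of 3378 nt, and Hex-C, Hex-t1 and Hex-t2 had none. The phosphoglycerate mutase step, between Pgk and Eno, was represented by 1 isoform of CG7059 and none of Pglym78 or Pglym87, whose longest annotated transcripts measure 1136 and 1085 nt. Isoforms of similar length were listed for Tpi (1111 nt) and Taldo (1115 nt), and why Pglym78 and Pglym87 were absent was not tested.

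None of 7 paralogs of the members had an isoform: Ald2, the phosphoglycerate kinase-like gene CG9961, and the pyruvate kinase-like genes CG2964, CG7069, CG7362, CG11249 and CG12229. Each of these enzyme steps was therefore represented by Ald1, Pgk or PyK. Of the genes for regulation, reverse steps and branches, Zw (the entry enzyme of the pentose phosphate pathway) had 2 isoforms. Pfrx, whose enzyme sets the level of an activator of phosphofructokinase, Taldo (transaldolase) and CG8036 had 1 each. No isoform was listed for fbp, Pepck1 and Pepck2, which serve gluconeogenesis, or for Pgd. Of the genes for the fate of pyruvate and NADH, 6 of 9 were listed. Gpo1, the mitochondrial partner in the glycerophosphate shuttle, had 3 isoforms. Its cytosolic partner Gpdh1 and the pyruvate dehydrogenase subunit gene Pdha had 2 each, and Ldh (lactate dehydrogenase), Mpc1 (mitochondrial pyruvate carrier) and Pdhb had 1 each. No isoform of Gpdh2, Gpdh3 or muc was listed.

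Alternative TSSs were found in 5 of the 21 listed genes, Treh, Glys, UGP, Zw and Gpo1, against 5.57% of all genes. APA was found in 2 of the 21, Glys and Gpdh1, against 7.17%. These shares were not tested. The 3 TSSs of Gpo1 all led to 1 PAS and to 1 whole coding region, as the 2 TSSs of Ald1 did for the coding region. In UGP, Zw and Treh, as in PyK, the longest whole coding region differed between TSSs, and all TSSs led to 1 PAS. The proteins had 511 and 518 residues in UGP, 524 and 502 in Zw, and 560 and 596 in Treh, each from the upstream and the downstream TSS. In Glys the TSSs led to different PASs, from 15147531 to 15141716 and from 15145471 to 15142575. The Glys isoform from the downstream TSS held no whole coding region. Of the 30 isoforms of these genes, 26 had an annotated splice chain, against 80.0% of multi-exon isoforms in the catalogue, and 22 ended within 1 nt of an annotated 3′ end, against 61.5%. The 30 include the single-exon isoform of Hex-A, counted as without an annotated chain, while the catalogue shares leave single-exon isoforms out. The 3 isoforms that ended over 150 nt away came from Glut1, Glys and Hex-A, 1 each.

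**Figure D5:**
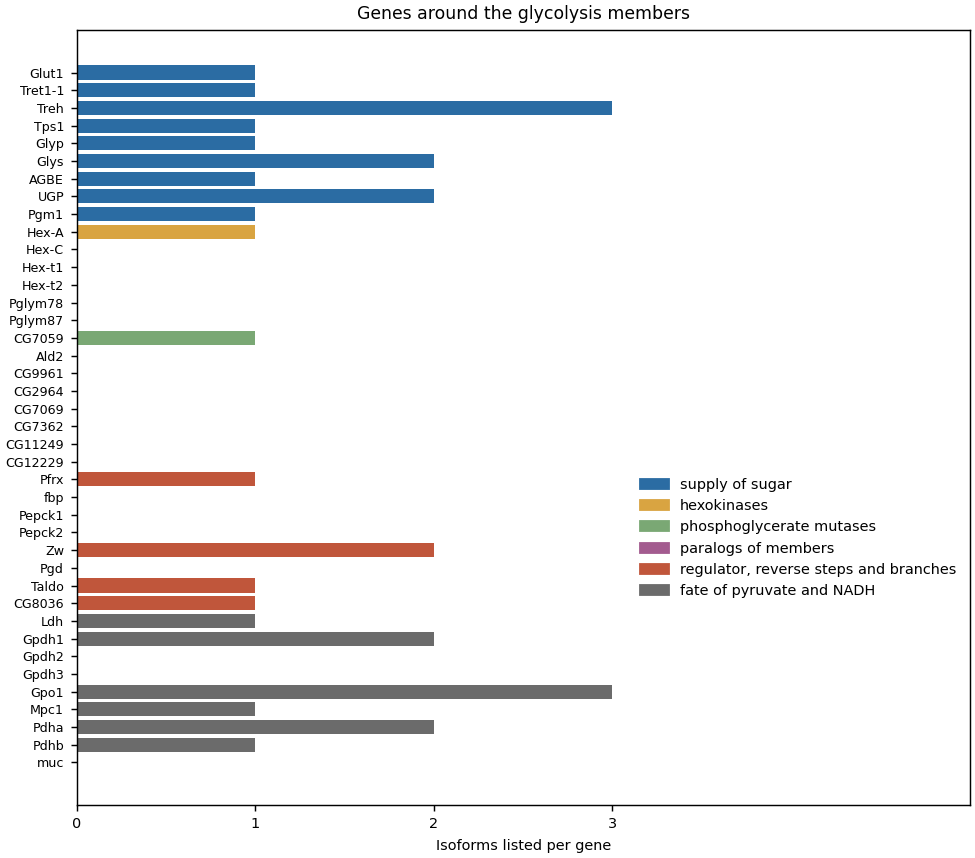
Number of isoforms listed for each of the 40 genes around the members; the horizontal axis is the number of isoforms and colours give the group of genes. All 9 genes for the supply and storage of sugar (labelled supply of sugar) have at least 1 isoform, with 3 for Treh, and no paralog of a member has any.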

How the data were processed

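The study made Iso-seq consensus reads, merged the 3 libraries, mapped them to dm6 (STARlong) and built isoforms in FLAIR; junctions from short reads guided the correction, and a promoter database the choice of 5′ ends. Each isoform needed at least 2 full-length reads, with a maximum of 5 ends per chain. For its final transcript set, the study also filtered 3′ ends with FLAM-seq and direct RNA sequencing, methods that detect poly(A) tails. Whether the catalogue passed this filter is not stated, so its PASs and APA shares rest on 3′ ends as listed. Libraries used 0.5 µg of RNA, 14 PCR cycles and 3 SMRT cells. The authors deposited the start and end of each exon as dm6 coordinates, with no abundance or normalization. A number per isoform of unstated meaning was left out.

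Isoforms were compared with the Ensembl annotation BDGP6.54, which has dm6 coordinates and is newer than that of the study. Of 4059 gene identifiers, 4035 matched it. Ends were called equal within 1 nt, since left ends lie 1 nt to the right of annotated starts, and junctions had to match exactly. TSSs merged 5′ ends within 50 nt and PASs merged 3′ ends within 150 nt, as in the study. A coding region was whole if every coding exon and junction was present. UTRs, protein lengths and comparisons between TSSs used the longest whole coding region that an isoform held.

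The members and lists were chosen with earlier results of these data known. By rule all 9 members and all 40 pathway genes are named; other genes were named after their values were seen. No test was run, since 1 pooled group has no replicates. Isoforms are numbered by 5′ end and length. The classification was checked on made-up transcripts, and the alternatives tried are given in the closing section. Sequences were not analysed here. Calculations used Python 3.11.15, numpy 2.4.6 and matplotlib 3.10.9.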

Additional observations from a re-analysis of the deposited data

How the results depend on the processing

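Of 25 alternatives tried for 10 results, 24 stayed within 1.5 times the reported value and 19 gave the same value. The exception was the number of pathway genes detected, 21 of 40, which became 7 when 2 isoforms were required. With genes reassigned from the annotation it was 22, since Pepck1 gained an isoform. The number of member isoforms (14), of members with several isoforms (3), with alternative TSSs (2) and with APA (1) stayed the same under the windows, gene labels and end filters tried, including TSS windows of 10 and 100 nt and PAS windows of 50 and 300 nt. The windows and end filter could not change these counts. The TSSs lie 1577 nt (Ald1) and 1746 nt (PyK) apart and the Ald1 PASs at least 534 nt. The end filter removed no member isoform. With a tolerance of 50 nt, 14 isoforms had an annotated 3′ end, and 11 still had an annotated 5′ end. If start and stop codon in exons were enough, 14 isoforms held a coding region, Pfk isoform 3 included. The mean spliced length was 2266 nt. The 2 planned results on poly(A) signals and on A-rich stretches after 3′ ends were not run, so internal priming at the Ald1 PASs was not tested. No paired analysis was possible because the libraries were pooled into 1 group, and no replicate could be left out. Sequencing depth is unknown here, which limits every statement on isoforms not found.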

Other observations

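A pair of isoforms without a gene identifier lay over the first intron of Ald1. Both have a single exon and are listed on the plus strand, opposite to Ald1, from 26258732 to 26261412 and from 26259440 to 26261412 on chromosome 3R. Their right end is the position of the upstream Ald1 TSS. Of 301 single-exon isoforms without a gene identifier, 134 (44.5%) have their listed 5′ end at an annotated start of that strand (1 nt tolerance). For 114 (37.9%) it is the listed 3′ end that lies at an annotated start of the opposite strand, as here, so the listed strand of this pair is uncertain. An antisense RNA gene, asRNA:CR44321, is annotated on the plus strand from 26260902 to 26261515, and no isoform was listed under it. Transcripts of Ald1 and of its opposite strand could not be told apart for this pair.

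Pgk and its convergent neighbour Cwc25 on chromosome 2L had ends within 1 nt of each other as listed. The Pgk isoform ended at 2746881, for an annotated end at 2746880, and the Cwc25 isoform at 2746880, while Cwc25 is annotated to 2746944.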
